A study of Mus musculus with 8 samples.

Results

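The genes examined here encode the machinery that stores and releases calcium in the sarcoplasmic reticulum of the heart muscle cell. They were selected from the table by gene name: *Atp2a2*, *Pln* and *Sln*, *Ryr2*, *Casq2*, *Trdn*, *Hrc*, *Jph2*, *Camk2d*, and *Slc8a1*. All 10 names were found among the 55679 genes of the expression table, and all 10 passed the filter on low values, a mean of at least 0.1 FPKM (fragments scaled to transcript length and to library size). The samples were left ventricles of male wild-type C57BL/6J mice. ANG II (angiotensin II), a peptide hormone that raises blood pressure, was infused at 1500 ng/kg/min for 7 days from osmotic mini-pumps placed under the skin, and control mice received saline. RNA sequencing of oligo(dT)-selected mRNA gave 4 control and 4 ANG II libraries. All animals were wild type and carried no transgene, and the model is thus 1 dose and 1 time point in 1 sex and strain.

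In each heartbeat, calcium entering through L-type channels opens the ryanodine receptor, which releases stored calcium and lets the myofilaments contract. The pump SERCA2a then returns calcium to the store and the sodium-calcium exchanger removes the remainder across the cell membrane, so that the muscle relaxes. Phospholamban and sarcolipin are small membrane proteins that bind the pump and lower its activity, and phosphorylation of phospholamban relieves that inhibition.

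The libraries held between 14455655 and 16564836 fragments, as recovered from the FPKM steps. The wording on extraction in the labels names another cell source, while the tissue label is left ventricle. In these libraries the 17 cardiomyocyte markers summed to 63000 to 63600 FPKM under saline and 50780 to 54040 FPKM in ANG II, whereas the 11 skeletal muscle markers summed to no more than 8.43 FPKM. Mitochondrially encoded genes took 26.3% to 27.0% of fragments in control and 19.2% to 21.8% in ANG II. The median log2 fold change of all 19364 tested genes was 0.15, and changes of members are also given relative to it. Fibroblast markers moved with the groups (10 of 10 called higher, summed level 579.0 to 863.4 FPKM under saline and 3613 to 4285 FPKM in ANG II), as did macrophage markers (9 of 10 called higher, 304.8 to 381.5 FPKM and 685.9 to 956.3 FPKM) and erythroid markers (6 of 6 called higher, 96.8 to 486.9 FPKM and 581.5 to 2089 FPKM). Of the tested endothelial, smooth muscle and adipocyte markers, 1 of 10, 1 of 7 and 0 of 5 were called higher. Over all tested genes 14% were called higher, by the rule given below. The part of these cell types in the differences of the members was not tested. In bulk tissue, fewer cells of a type and less RNA per cell cannot be told apart.

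The 2 smallest members are pump regulators whose whole coding sequences fit on a line. They are shown because their levels are set beside that of the pump they bind. In the *Pln* sequence, capitals mark codons 16 and 17, the serine and threonine that protein kinase A and CaM kinase II phosphorylate. No capitals are set in *Sln*. Both were read from GRCm38 on the plus strand, *Pln* at chr10:53343864-53344022 with 52 codons before the stop and *Sln* at chr9:53853473-53853568 with 31, each within 1 exon.
Pln: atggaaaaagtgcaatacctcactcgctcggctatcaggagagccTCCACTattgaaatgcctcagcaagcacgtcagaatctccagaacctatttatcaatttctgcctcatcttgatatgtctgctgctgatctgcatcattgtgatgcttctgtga
Sln: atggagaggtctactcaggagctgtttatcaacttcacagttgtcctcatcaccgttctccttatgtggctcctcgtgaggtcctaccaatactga

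The comparison of ANG II with saline showed lower levels of the pump, phospholamban, *Hrc*, *Jph2*, *Camk2d* and *Trdn* by adjusted p. By the same measure *Sln* and the exchanger were higher, while the release channel and *Casq2* did not pass the test. A gene was called when the limma test, with Benjamini-Hochberg adjustment over all tested genes, gave an adjusted p under 0.05 and the absolute log2 fold change exceeded 0.5. By this rule 1 member was called lower (*Hrc*) and 1 higher (*Sln*). Over all tested genes 15.4% were called, 14% as higher (2708 genes) and 1.41% as lower (273 genes). This split moved with the scaling, to 1671 higher and 806 lower under median-of-ratios scaling, 1413 higher and 986 lower under quantile normalization, and 4083 and 137 when the libraries were scaled to cardiomyocyte markers. By the adjusted p alone, 6 members were lower, 2 were higher and 2 did not pass, against 4.91% of all genes lower and 28.4% higher. The values of the groups did not overlap for 5 members, all lower in ANG II (*Atp2a2*, *Pln*, *Hrc*, *Jph2* and *Camk2d*), against 5.06% of all genes without overlap and lower and 28.7% without overlap and higher. The median log2 fold change of the 10 members was -0.19. The members together took 1.87% to 2.01% of all fragments in control libraries and 1.41% to 1.60% in ANG II libraries, most of them from *Atp2a2*.

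**Figure D1:**
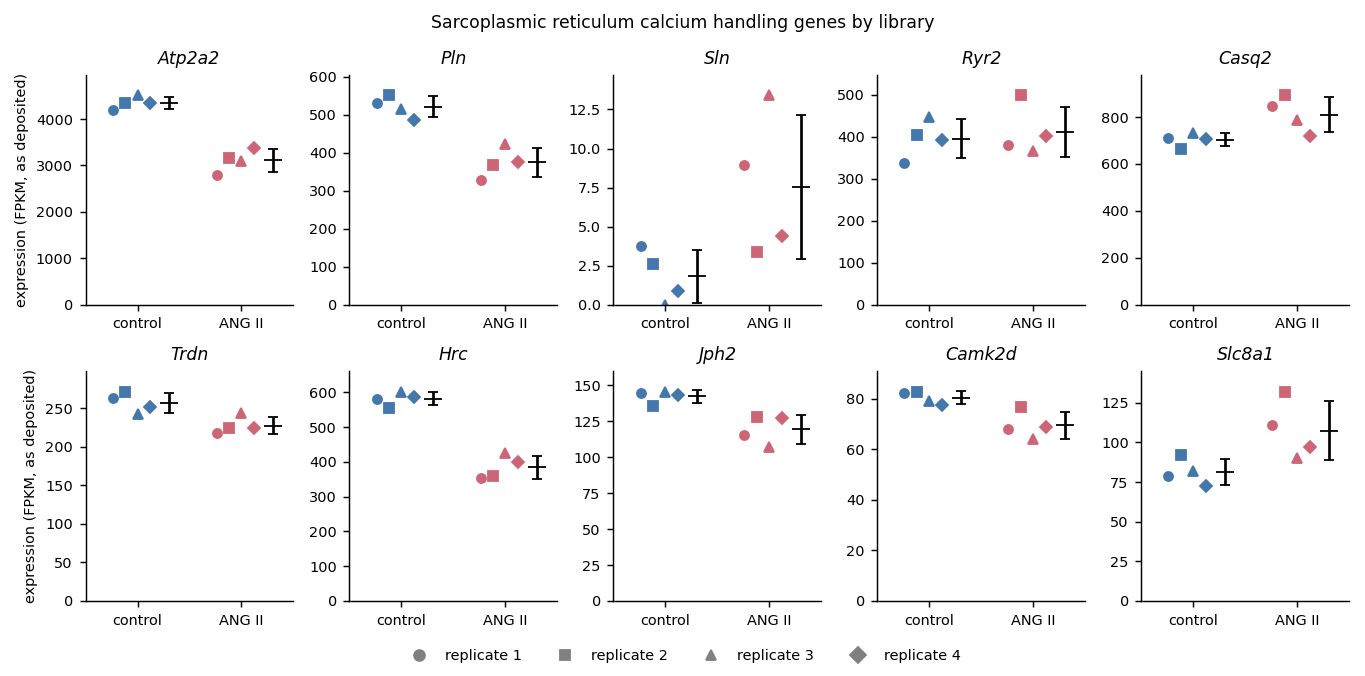
Expression of the 10 members in FPKM as deposited (vertical axes, each starting at 0) in 4 control and 4 ANG II libraries. Each symbol is 1 library and its shape gives the replicate number, and black marks are the mean and SD (n = 4). *Atp2a2*, *Pln*, *Hrc*, *Jph2* and *Camk2d* show no overlap between the groups, and *Sln* spreads from 3.38 to 13.4 FPKM in ANG II.

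*Atp2a2* (ENSMUSG00000029467, GRCm38 chr5:122453513-122502225, minus strand) encodes SERCA2, the calcium pump of the reticulum. Its level was 4192, 4342, 4510 and 4337 FPKM in control libraries 1 to 4 and 2798, 3166, 3087 and 3387 FPKM in ANG II libraries 1 to 4. Every ANG II library lay below every control library, and ANG II 1 was the lowest. The mean was 4345 ± 130.4 FPKM under saline and 3109 ± 243.3 FPKM in ANG II (SD, n = 4), a log2 fold change of -0.49 (SE 0.08, 95% interval -0.66 to -0.31) with an adjusted p of 0.00108 (limma). It passed the adjusted p and stayed just inside the fold threshold of 0.5, so it was not called. It was past that threshold without control 1 (-0.503) and without ANG II 4 (-0.528). It was also past it under median-of-ratios scaling (-0.71) and with a reduced total, which left mitochondrial genes and the 10 most abundant genes out of the library total (-0.63). Against the all-gene median it differed by -0.63. *Atp2a2* alone took 1.30% to 1.39% of fragments in control libraries and 0.865% to 1.05% in ANG II libraries.

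*Pln* (ENSMUSG00000038583, chr10:53337667-53345987, plus strand) encodes phospholamban, the main inhibitor of SERCA2a in the ventricle. It was measured at 531.5, 551.1, 515.2 and 486.1 FPKM under saline and at 329.3, 369.1, 423.8 and 375.6 FPKM in ANG II. The groups were apart, and ANG II 3 came nearest to the control libraries. Means were 521.0 ± 27.5 and 374.4 ± 38.7 FPKM (SD, n = 4), or -0.48 on the log2 scale (SE 0.08), with a limma adjusted p of 0.00111, again inside the fold threshold. It was past the threshold under quantile normalization (-0.59), median-of-ratios scaling (-0.71) and the reduced total (-0.63), and without control 4 (-0.51) or ANG II 3 (-0.54). Of the exon length of *Pln*, 64.7% lies under *Gm47644*, a gene on the other strand, and whether counting used strand is not given in the sources used here. Reads of the pair could therefore not be told apart for certain. *Gm47644* was listed at 13.9 to 22.3 FPKM under saline and 9.86 to 12.8 FPKM in ANG II.

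The pump and its inhibitor differed between the groups by nearly the same amount. The level of *Pln* was 12.7%, 12.7%, 11.4% and 11.2% of that of *Atp2a2* in control libraries 1 to 4, and 11.8%, 11.7%, 13.7% and 11.1% in ANG II libraries. The groups overlapped almost entirely. The log2 ratio differed by 0.01 (SE 0.08, exact two-sided permutation p = 0.971), and leaving out control 3 or 4 or ANG II 3 turned its sign. A ratio of genes within 1 library does not depend on how the libraries are scaled by a common factor. Of 6 such ratios tested between members, none had a Benjamini-Hochberg adjusted p under 0.05, and the smallest adjusted value, 0.0857, was shared by 2 ratios in which the groups did not overlap at all. With 4 against 4 libraries the exact test cannot go below 0.0286. As only 2 of the 6 ratios were at that floor, their adjusted p was 0.0857 however large the difference. The adjusted test could thus not pass them.

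*Sln* (ENSMUSG00000042045, chr9:53850164-53854560, plus strand) encodes sarcolipin, a pump regulator that in the mouse heart is chiefly an atrial product. Its level was low, at 3.78, 2.60, 0 and 0.843 FPKM in control libraries and 8.96, 3.38, 13.4 and 4.42 FPKM in ANG II libraries, from 72, 50, 0 and 17 fragments and from 179, 71, 267 and 93 fragments. ANG II 2 lay below control 1, and control 3 had no fragment, which allows up to 0.137 FPKM (3 fragments, for counting error only). Means were 1.80 ± 1.70 and 7.54 ± 4.60 FPKM (SD, n = 4), a 4.18-fold higher mean in ANG II and a log2 fold change of 1.69 on the log2(FPKM + 1) scale (SE 0.51, 95% interval 0.54 to 2.83, limma adjusted p = 0.0291). With a pseudocount of 0.1 the log2 fold change was 2.73 (adjusted p = 0.0578), and with voom in limma on recovered fragments it was 3.40 (0.0285). The call was lost with no filter (adjusted p = 0.0643), under quantile normalization (1.45, 0.0695) and with median-of-ratios scaling (1.54, 0.0508), as well as without control 3 (log2 fold change 1.27, adjusted p = 0.0703), control 4 (1.56, 0.0837), ANG II 1 (1.56, 0.0868) or ANG II 3 (1.38, 0.0855).

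The spread of *Sln* within each group moved with genes of atrial myocytes. *Myl7*, the atrial regulatory myosin light chain, stood at 19.8, 21.1, 0.205 and 6.76 FPKM under saline and 51.1, 28.2, 89.6 and 21.8 FPKM in ANG II. *Myl4*, the atrial essential light chain, stood at 25.2, 23.7, 0.950 and 12.8 FPKM and at 65.6, 34.8, 127.5 and 26.3 FPKM. Both were lowest in control 3, where *Sln* was at 0, and highest in ANG II 3, where *Sln* was highest. The deviations of *Sln* from its group means had a correlation of 0.928 with those of *Myl7*, 0.924 with *Myl4*, 0.940 with *Mybphl*, 0.700 with *Stard10*, 0.468 with *Dkk3* and 0.115 with *Nppa*, over 8 libraries that are the same for every gene. *Nppa*, the atrial natriuretic peptide gene that ventricles also express under load, was at 6.56 to 11.1 FPKM under saline and 108.5 to 160.9 FPKM in ANG II, and did not follow this order. Of 7 atrial markers, 6 were tested and 3 were called higher (*Nppa*, *Mybphl* and *Dkk3*), against 14% of all tested genes. *Myl7* and *Myl4* did not pass (limma adjusted p = 0.0557 for each). *Stard10* had a lower mean in ANG II (17.1 and 13.8 FPKM, log2 fold change -0.32, limma adjusted p = 0.197), and *Bmp10* was too low to be tested. The markers summed to 25.7 to 80.5 FPKM under saline and 220.4 to 368.5 FPKM in ANG II, where *Nppa* alone gave 108.5 to 160.9 FPKM. The part of atrial RNA in the difference of *Sln* was not tested.

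**Figure D2:**
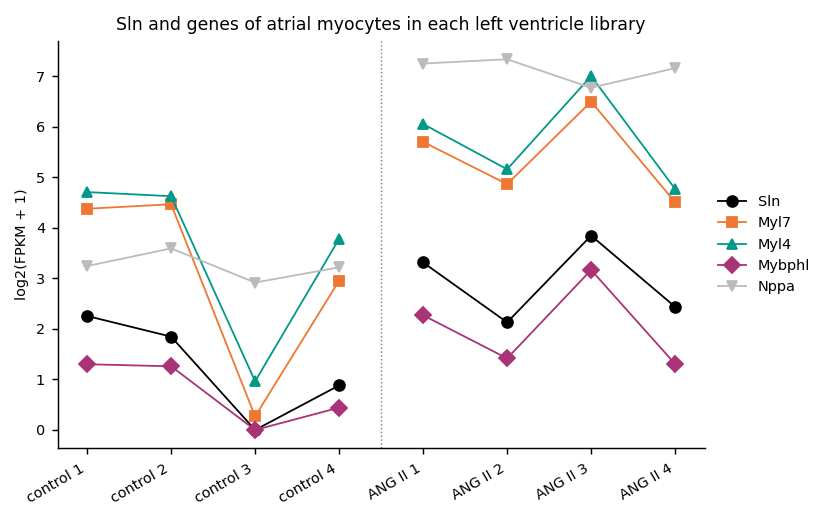
Log2(FPKM + 1) (vertical axis) of *Sln* and 4 atrial genes in each of the 8 libraries, with lines joining the libraries of a group only to guide the eye. *Sln*, *Myl7*, *Myl4* and *Mybphl* were lowest in control 3 and highest in ANG II 3, whereas *Nppa* separated the groups with little spread inside them.

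Relative to the pump, *Sln* was 0.0902%, 0.0598% and 0.0194% of *Atp2a2* in control 1, 2 and 4, no more than 0.00305% in control 3 (at the floor of 3 fragments), and 0.320%, 0.107%, 0.434% and 0.130% in ANG II libraries. The groups did not overlap. The log2 ratio was 3.14 higher in ANG II (SE 1.20, exact permutation p = 0.0286, adjusted over the 6 ratios 0.0857), and 2.15 higher without control 3. It was 2.17 higher with a pseudocount of 1 in both genes and 1.81 higher under quantile normalization. In every library *Sln* remained under 1% of the level of the pump, and *Pln* was the more abundant inhibitor.

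Of the release unit, *Hrc*, *Trdn* and *Jph2* were lower in ANG II by adjusted p, while *Ryr2* and *Casq2* did not pass. *Ryr2* (ENSMUSG00000021313, chr13:11553102-12106945, minus strand), the cardiac ryanodine receptor, was at 336.9, 404.4, 447.9 and 392.8 FPKM under saline and 379.2, 498.1, 365.7 and 401.8 FPKM in ANG II. The libraries of both groups were interleaved. Means were 395.5 ± 45.7 and 411.2 ± 59.8 FPKM (SD, n = 4), and the log2 fold change was 0.05 with a 95% interval from -0.19 to 0.30 (limma adjusted p = 0.751). Its sign turned to -0.18 under median-of-ratios scaling, to -0.05 under quantile normalization and to -0.09 with the reduced total.

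*Casq2* (ENSMUSG00000027861, chr3:102086415-102146514, plus strand), cardiac calsequestrin, binds calcium inside the store. It was at 711.1, 664.0, 731.5 and 707.0 FPKM under saline and 846.2, 892.3, 786.5 and 717.3 FPKM in ANG II. Only ANG II 4 lay within the control range. Means were 703.4 ± 28.4 and 810.6 ± 75.8 FPKM, a log2 fold change of 0.20 (SE 0.07) that did not pass (limma adjusted p = 0.0573) and that came to -0.03 under median-of-ratios scaling. *Hrc* (ENSMUSG00000038239, chr7:45335290-45338974, plus strand), the histidine-rich calcium binding protein, is another luminal protein and binds both SERCA2 and triadin. It was at 580.2, 556.7, 601.8 and 586.3 FPKM under saline and 353.9, 359.1, 425.0 and 400.0 FPKM in ANG II. The groups were far apart, with the highest ANG II library well below the lowest control library. Means were 581.3 ± 18.7 and 384.5 ± 34.0 FPKM (SD, n = 4), or -0.60 on the log2 scale (SE 0.07, 95% interval -0.75 to -0.45), with a limma adjusted p of 0.000146. It was the only member called lower with values as deposited, and it was not called when the libraries were scaled to the cardiomyocyte markers (-0.44, inside the fold threshold).

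*Trdn* (ENSMUSG00000019787, chr10:33080554-33476709, plus strand), triadin, anchors calsequestrin to the release channel. It was at 263.3, 271.1, 241.8 and 251.7 FPKM under saline and 218.2, 223.8, 243.5 and 223.6 FPKM in ANG II. ANG II 3 exceeded control 3, and the other ANG II libraries lay below all control libraries. The log2 fold change was -0.18 (SE 0.05, limma adjusted p = 0.0306), and the adjusted p lay between 0.0541 and 0.0829 when control 1, 2 or 4 or ANG II 1, 2 or 4 was left out. *Jph2* (ENSMUSG00000017817, chr2:163336242-163397993, minus strand), junctophilin 2, ties the reticulum to the transverse tubules. Its level was 144.7, 135.9, 145.4 and 143.5 FPKM under saline and 115.5, 127.9, 107.0 and 127.4 FPKM in ANG II. The groups did not overlap, and the log2 fold change was -0.25 (SE 0.06, limma adjusted p = 0.0116). *Camk2d* (ENSMUSG00000053819, chr3:126596302-126846326, plus strand), the main cardiac isoform of CaM kinase II, acts on both the release channel and phospholamban. It was at 82.3, 82.7, 79.1 and 77.5 FPKM under saline and 68.2, 76.6, 64.0 and 68.9 FPKM in ANG II. The groups were apart by a small margin, as ANG II 2 was close to control 4, and the log2 fold change was -0.21 (SE 0.06, limma adjusted p = 0.0203), with an adjusted p of 0.0520 without control 1 and 0.0547 without ANG II 1.

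The ratios to the channel were tested for *Casq2*, *Trdn* and *Camk2d*. *Casq2* was 211.1%, 164.2%, 163.3% and 180.0% of *Ryr2* in control and 223.1%, 179.1%, 215.0% and 178.5% in ANG II (log2 difference 0.15, SE 0.12, exact permutation p = 0.229). *Trdn* was 54.0% to 78.2% of *Ryr2* in control and 44.9% to 66.6% in ANG II (log2 difference -0.23, SE 0.16, p = 0.257, exact permutation test). *Camk2d* was 17.7% to 24.4% of *Ryr2* in control and 15.4% to 18.0% in ANG II (log2 difference -0.27, SE 0.11, p = 0.0571, exact permutation test). In each of these 3 ratios the ranges of the groups overlapped. For *Hrc* and *Jph2* the ratios were computed after the data were seen and were not tested. *Hrc* was 134.4% to 172.2% of *Ryr2* in control and 72.1% to 116.2% in ANG II, and *Jph2* was 32.5% to 43.0% and 25.7% to 31.7%, both without overlap.

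*Slc8a1* (ENSMUSG00000054640, chr17:81373105-81738377, minus strand) encodes NCX1, the sodium-calcium exchanger of the cell membrane. It was at 79.1, 92.3, 82.2 and 72.6 FPKM under saline and 110.7, 131.9, 90.3 and 97.0 FPKM in ANG II. Only ANG II 3 lay below the highest control library. Means were 81.5 ± 8.20 and 107.5 ± 18.4 FPKM (SD, n = 4), or 0.38 on the log2 scale (SE 0.11, 95% interval 0.13 to 0.64), with a limma adjusted p of 0.0276. Against the all-gene median it differed by 0.24, and under median-of-ratios scaling it was 0.16 and no longer passed (adjusted p = 0.367). Nor did it pass under quantile normalization (0.22, limma adjusted p = 0.190), with the reduced total (0.24, 0.158) or with no filter (adjusted p = 0.0560). Without control 1, 3 or 4 or ANG II 1 or 2, its adjusted p was between 0.0563 and 0.0845. Relative to the pump, *Slc8a1* was 1.89%, 2.12%, 1.82% and 1.67% of *Atp2a2* in control libraries and 3.96%, 4.17%, 2.92% and 2.86% in ANG II libraries. Every ANG II library was above every control library. The log2 ratio of exchanger to pump was 0.87 higher in ANG II (SE 0.16, exact permutation p = 0.0286, adjusted over the 6 ratios 0.0857), with geometric means of 1.87% and 3.43%. Under quantile normalization it was 0.58 higher.

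**Figure D3:**
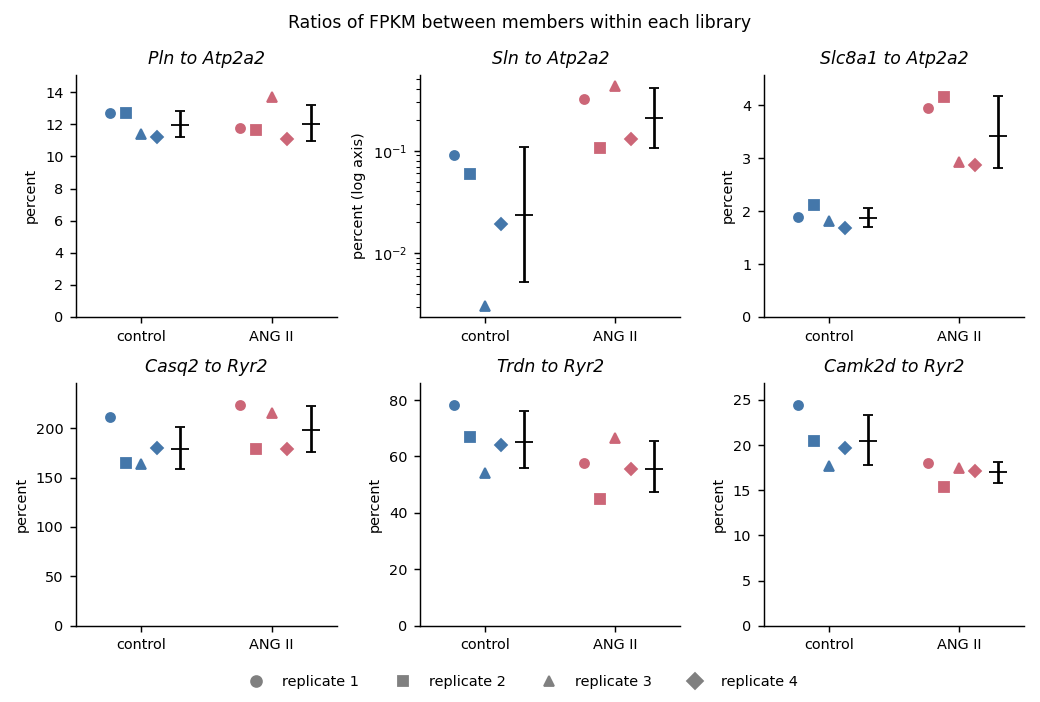
FPKM of 1 member as a percentage of another in the same library (vertical axes, log axis for *Sln* to *Atp2a2*), for 4 control and 4 ANG II libraries. Symbols are libraries, and black marks are the geometric mean with 1 SD on the log2 scale. The groups are apart for *Sln* and *Slc8a1* against *Atp2a2* and overlap in the other 4 ratios. The *Sln* value of control 3 is the floor of 3 fragments.

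Scaling changed the sign of *Ryr2* and *Casq2*, and for other members it moved the size of the difference or whether it passed. Among the 17 cardiomyocyte markers, contractile and metabolic genes of the same cells, 5 were lower and 0 higher by adjusted p, 1 was called (*Myh6*, log2 fold change -0.55, limma adjusted p = 0.00126), and the median log2 fold change was -0.13, against 4.91% of all tested genes lower by adjusted p. Under median-of-ratios scaling 13 of the 17 were lower by adjusted p (median -0.36), with the reduced total 10 were (median -0.28), and with quantile normalization 3 were (median -0.05). With the libraries scaled to the mean log2 level of these markers, *Hrc* (-0.44, adjusted p = 0.00149), *Atp2a2* (-0.33, 0.00721) and *Pln* (-0.32, 0.0114) were still lower by adjusted p in limma. *Jph2* (-0.10, 0.183), *Camk2d* (-0.05, 0.393) and *Trdn* (-0.02, 0.830) no longer passed. *Slc8a1* (0.54, 0.00184) and *Sln* (1.79, 0.0170) were the members called on that scale, and *Casq2* passed by adjusted p (0.36, 0.00197). Relative to the median of all tested genes, the differences of the members were -0.75 for *Hrc*, -0.63 for *Atp2a2* and *Pln*, -0.40 for *Jph2*, -0.36 for *Camk2d*, -0.32 for *Trdn*, -0.10 for *Ryr2*, 0.05 for *Casq2*, 0.24 for *Slc8a1* and 1.54 for *Sln*. Median-of-ratios scaling, which placed the median of all genes near 0, called 3 members lower (*Hrc*, *Atp2a2* and *Pln*) and 0 higher. The reduced total called these 3 lower and *Sln* higher. *Hrc*, *Atp2a2* and *Pln* were lower by adjusted p under each of 19 alternatives tried, *Jph2* under 18, *Camk2d* under 15 and *Trdn* under 10. *Sln* was higher by adjusted p under 11, *Slc8a1* under 10 and *Casq2* under 5 of the 19, and *Ryr2* passed under 0.

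**Figure D4:**
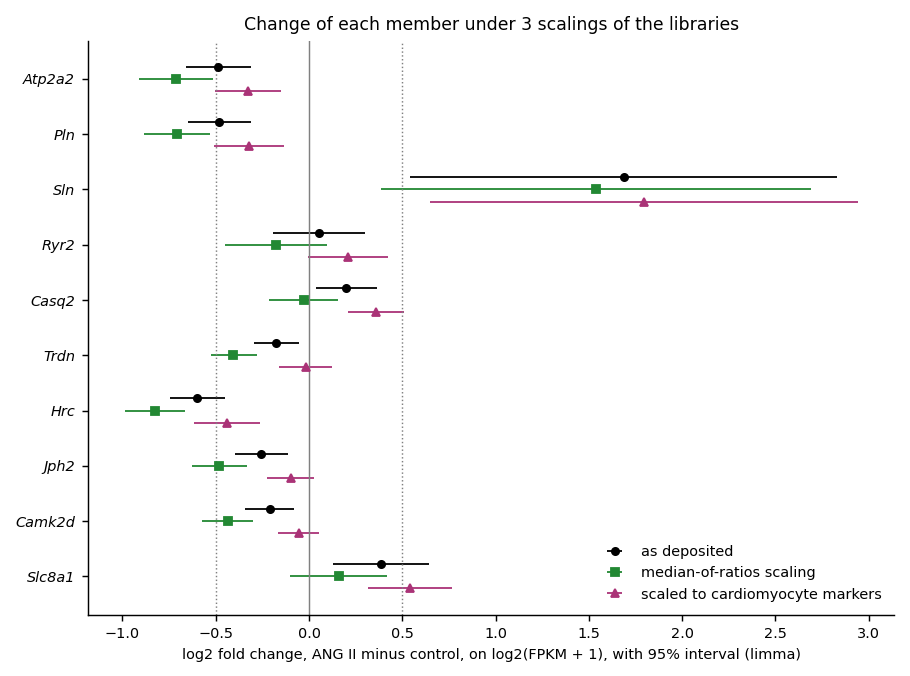
Log2 fold change of each member, ANG II minus control, on log2(FPKM + 1) (horizontal axis) with its 95% interval from limma, for values as deposited, under median-of-ratios scaling and scaled to the cardiomyocyte markers. Dotted lines mark the fold threshold of 0.5. *Hrc*, *Atp2a2* and *Pln* stay below 0 and *Sln* above 0 on all 3 scales, while *Ryr2* and *Casq2* cross 0.

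Levels of different members can be compared only per length of transcript, and the deposited values divide by the mean length over all annotated transcripts of a gene, short ones included. Per kilobase of the longest coding transcript in the GENCODE M21 annotation, the control means were 2994 for *Atp2a2*, 391.9 for *Casq2*, 363.8 for *Hrc*, 296.3 for *Pln*, 141.4 for *Jph2*, 103.8 for *Trdn*, 98.3 for *Ryr2*, 35.7 for *Camk2d*, 24.2 for *Slc8a1* and 1.80 for *Sln*. On this scale *Atp2a2* stood far above every other member. The deposited value of *Ryr2* was 4.02 times and that of *Slc8a1* 3.38 times the value on this scale, so that *Ryr2* stood above *Trdn* and *Jph2* as deposited but below them per longest transcript. The choice of length does not alter the ratio of 2 group means of FPKM. It does alter a log2 fold change on log2(FPKM + 1), most for genes at low levels. Calls of such genes near the fold threshold, such as *Atp2a3* and *Atp2b4* below, could move with it and were not recomputed.

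Upstream sequence is shown for members that moved in each direction. RefSeq promoters (GRCm38.p6) were matched for 7 of the 10 members, with *Atp2a2*, *Sln* and *Trdn* not matched. The 250 bases before the RefSeq start are shown for *Pln* and *Hrc*, which were lower, and for *Slc8a1*, which was higher. That start differs from the GENCODE gene start given above. The *Pln* window runs into the GENCODE gene, while the *Hrc* and *Slc8a1* windows end short of theirs. Capitals mark TATAAA on the forward strand, and AGATAA (the GATA factor motif) and GGGCGG (the GC box) on either strand. The windows are chr10:53337436-53337685 (plus strand) for *Pln*, chr7:45335019-45335268 (plus strand) for *Hrc* and chr17:81738388-81738637 (minus strand) for *Slc8a1*.
Pln: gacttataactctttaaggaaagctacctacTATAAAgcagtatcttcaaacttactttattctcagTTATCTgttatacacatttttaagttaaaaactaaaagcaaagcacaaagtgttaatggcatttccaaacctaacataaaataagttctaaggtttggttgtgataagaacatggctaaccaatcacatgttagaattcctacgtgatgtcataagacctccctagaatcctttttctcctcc
Hrc: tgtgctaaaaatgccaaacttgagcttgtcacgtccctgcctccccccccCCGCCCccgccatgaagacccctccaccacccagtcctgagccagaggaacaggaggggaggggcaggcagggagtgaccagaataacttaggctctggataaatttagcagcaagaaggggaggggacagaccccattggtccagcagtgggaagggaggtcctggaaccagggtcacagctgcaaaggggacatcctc
Slc8a1: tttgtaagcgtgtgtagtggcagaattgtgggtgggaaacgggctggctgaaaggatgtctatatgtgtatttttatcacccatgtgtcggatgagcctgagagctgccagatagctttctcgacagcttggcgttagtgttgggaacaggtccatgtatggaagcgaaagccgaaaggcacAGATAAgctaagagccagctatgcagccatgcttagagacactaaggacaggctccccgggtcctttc

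The *Pln* window held 1 TATAAA and 1 AGATAA match and was 32.8% G and C, against a median of 52.4% over all 32851 promoters. The *Slc8a1* window held 1 AGATAA match and no GC box, and the *Hrc* window held 1 GC box and neither of the other motifs. Over all promoters of the same length, 7.59% held TATAAA, 9.99% AGATAA and 32.7% a GC box. Each of the 3 windows also held 1 CANNTG match (the E-box, in 66.2% of promoters, not capitalised), and searches on both strands for CATTCC (the MCAT element, in 12.6% of promoters), for GGAAAA (the NFAT core, in 20.4%) and for the MEF2 (2.92%) and CArG (1.47%) motifs gave no match in them. The capitalised matches did not overlap. A match describes the letters in the window.

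Beyond the members, 60 further calcium handling genes were listed by role, of which 59 were in the table and 55 were tested. By adjusted p, 23 were higher, 7 were lower and 25 did not pass, against 28.4% of all tested genes higher and 4.91% lower. By adjusted p the split turned to 9 higher and 18 lower under median-of-ratios scaling, 8 higher and 16 lower under quantile normalization and 12 and 14 with the reduced total, and was 29 and 2 on the cardiomyocyte marker scale. Their median log2 fold change was 0.16, and 7 of the 55 were called, all higher, against 14% of all tested genes called higher. The calls also depended on the scaling, as 4 were called higher and 3 lower under median-of-ratios scaling, 1 higher and 4 lower under quantile normalization, 4 higher and 2 lower with the reduced total, and 15 higher and 0 lower when scaled to the cardiomyocyte markers.

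Of 11 release channel genes and their regulators tested, 9 were higher by adjusted p, 0 were lower and 3 were called, against 28.4% of all tested genes higher by adjusted p and 14% called higher. The median log2 fold change of the 11 was 0.42, and that of all tested genes 0.15. *Selenon*, a selenoprotein of the reticulum, was at 12.9 ± 0.718 FPKM under saline and 22.4 ± 1.93 FPKM in ANG II (log2 fold change 0.75, SE 0.07, limma adjusted p = 8.05e-05). *Calm2*, 1 of the 3 genes for calmodulin, was at 119.2 ± 11.9 and 181.5 ± 17.1 FPKM (0.60, SE 0.08, adjusted p = 0.000553), and shares 9.72% of its 50-base words with *Gm7308*. Its log2 fold change was 0.37 under median-of-ratios scaling, 0.41 under quantile normalization and 0.46 with the reduced total, each inside the fold threshold. *Fkbp1b*, encoding the FKBP12.6 subunit that binds *Ryr2*, was at 1.05 ± 0.432 and 2.28 ± 0.669 FPKM (0.68, SE 0.18, adjusted p = 0.0171), and lost its call under quantile normalization (0.41, adjusted p = 0.114) and without control 1, control 4 or ANG II 1.

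The other lists are read against the same all-gene shares, 28.4% higher and 4.91% lower by adjusted p and 15.4% called. Of 11 luminal and junctional genes tested, 2 were higher by adjusted p and 0 were lower, with a median of 0.03. *Bin1*, which shapes transverse tubules, was called (4.93 ± 0.958 and 8.53 ± 0.491 FPKM, log2 fold change 0.70, limma adjusted p = 0.00145), but not under quantile normalization (0.40). Of 4 pump genes, 2 were higher by adjusted p and 0 lower. *Atp2a3*, the SERCA3 pump of non-muscle cells, was called (4.92 ± 0.291 and 7.47 ± 1.05 FPKM, 0.51, adjusted p = 0.00431). Its level in each group was far below that of *Atp2a2*, and its call was lost under median-of-ratios scaling (0.31, adjusted p = 0.0540), quantile normalization (0.21, 0.193) and the reduced total (0.38, 0.0241), and without control 1, control 3, ANG II 3 or ANG II 4 (0.45 to 0.50).

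Of 13 kinases, phosphatases and anchors, 3 were higher and 4 lower by adjusted p and 0 were called. *Hspb6*, the most abundant of them and a small heat shock protein, was at 442.1 ± 26.0 and 436.3 ± 34.1 FPKM (log2 fold change -0.02, limma adjusted p = 0.848). *Camk2a*, another isoform of CaM kinase II that was singled out after its values were seen, was at 21.9 ± 1.51 FPKM under saline and 15.2 ± 0.808 FPKM in ANG II (-0.49, adjusted p = 0.000455). Of 9 genes of sarcolemmal entry and exit, 3 were higher and 2 lower by adjusted p. *Atp2b4*, a plasma membrane calcium pump, was called (8.11 ± 0.230 and 12.0 ± 0.501 FPKM, 0.52, adjusted p = 0.000257). Its log2 fold change came inside the fold threshold under median-of-ratios scaling (0.31), quantile normalization (0.25) and the reduced total (0.38), and without ANG II 4 (0.49). Of 7 mitochondrial calcium genes, 4 were higher and 1 lower by adjusted p. *Mcub*, the inhibitory subunit of the mitochondrial uniporter, was called (2.86 ± 0.434 and 5.79 ± 1.26 FPKM, 0.80, adjusted p = 0.00213), but not under quantile normalization (0.49).

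**Figure D5:**
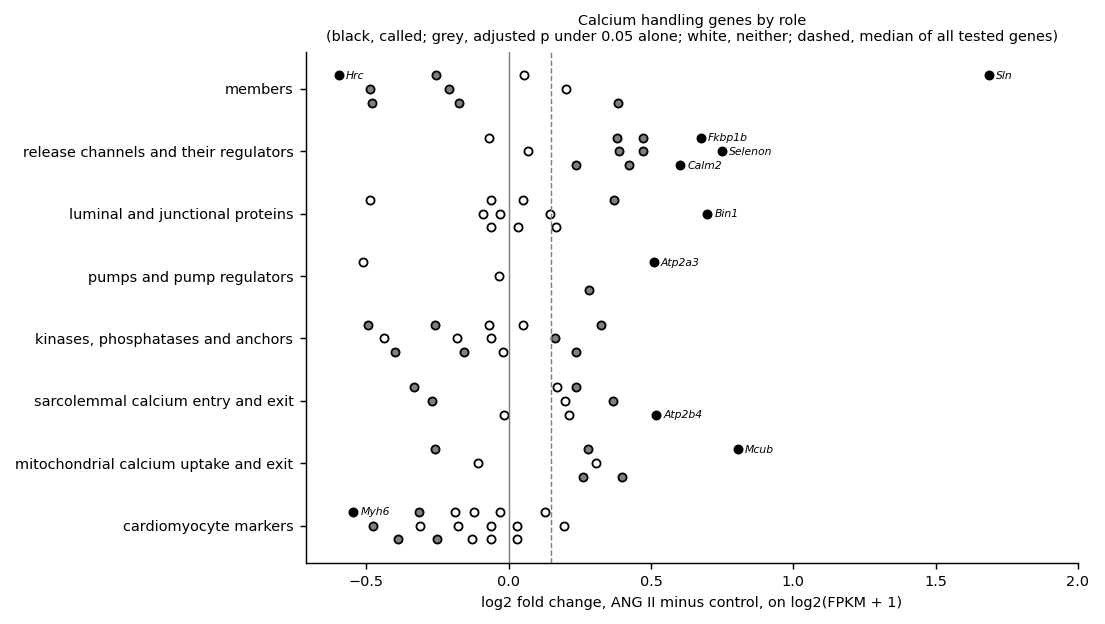
Log2 fold change, ANG II minus control, on log2(FPKM + 1) (horizontal axis) of each tested gene of the members, of the 6 lists of other calcium handling genes and of the cardiomyocyte markers. Each point is 1 gene, with called genes black and named, genes past the adjusted p alone grey and the rest white, and the dashed line is the median of all tested genes, 0.15.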

How the data were processed

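mRNA of 8 left ventricles (4 control, 4 ANG II) was sequenced, and groups were taken from the sample labels. The authors deposited a table of FPKM values for 55679 genes. The submitters' processing notes name HISAT, Bowtie2 and RSEM, and versions, genome build, annotation and strand setting are not given in the sources used here. Of the gene identifiers, 55141 matched GENCODE M21 (GRCm38), whose coordinates were used. FPKM divided counts by the mean length of a gene's transcripts: with that length, 99.1% of values of genes with 1 transcript and 97.3% of those with several came to whole fragments within 0.05, for values under 60 fragments. Totals were 14455655 to 16564836 fragments, and fragments without molecular identifiers are not independent molecules, so floors cover counting error only.

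Values were tested as log2(FPKM + 1) with limma 3.58.1 in R 4.3.3 (variance trend, no covariates). The study's methods name limma together with another package, and an adjusted p and log fold change threshold of the same size, with no base for the logarithm. The log2(FPKM + 1) input, the variance trend and base 2 were chosen here. The filter kept the 19364 genes whose mean reached 0.1 FPKM, p-values were adjusted by Benjamini-Hochberg over all of them, and a call needed an adjusted p under 0.05 and an absolute log2 fold change above 0.5. For 6 ratios between members, log2 FPKM ratios were compared by exact two-sided permutation over all allocations of the 8 libraries, with the 1 *Sln* value at 0 set to 3 fragments, a choice made after the value was seen. The study's methods describe the sequenced samples as biological replicates, with more per group than the libraries analysed here. The labels do not tie a library to an animal, and p-values measure the spread between these 8 libraries.

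Members, gene lists and tests were chosen with earlier results of these data known. Named genes were all members, up to 4 called genes with the largest change in each list (or the most abundant gene where none was called), and the 3 genes with the pattern most like each member. Alternatives changed the pseudocount, the filter, the scaling (median-of-ratios, quantile, common total, a total without mitochondrial genes and the 10 most abundant genes, cardiomyocyte markers), the variance trend, the fold threshold, the model (voom in limma on recovered fragments), the replicate block and the libraries, each left out in turn. 1 gene of the pump list was not analysed here, since its name had no match in the table.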

Additional observations from a re-analysis of the deposited data

How the results depend on the processing

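Calls of members were 2 as reported, 1 with a pseudocount of 0.1, with no filter or with a log2 threshold of 1, 4 with the total that left out mitochondrial and the most abundant genes, 8 with no fold threshold, and 1 to 3 with single libraries left out (1 without control 3 or ANG II 1). The other calcium handling genes called were 7 as reported, 11 with a pseudocount of 0.1 or with voom, 15 when scaled to the cardiomyocyte markers, 30 with no fold threshold, 0 with a threshold of 1 (limma), and 6 to 8 with single libraries left out. Of them, 33 had an unadjusted p under 0.05, whatever their fold. Called cardiomyocyte markers were 1 as reported, 5 under median-of-ratios scaling, 3 with the reduced total, 0 on their own scale, 5 with no fold threshold, 0 with a threshold of 1, and 1 to 2 with single libraries left out (2 without ANG II 3). All genes called were 2981 as reported, 6447 with no fold threshold, 795 with a threshold of 1, 2477 (1671 higher, 806 lower) under median-of-ratios scaling, 2399 (1413, 986) under quantile normalization, 2522 (1974, 548) with the reduced total, 4220 (4083, 137) on the cardiomyocyte marker scale, and 2722 to 3078 with single libraries left out. The median of all genes was 0.00 under median-of-ratios scaling, -0.04 under quantile normalization, 0.05 with the reduced total and 0.25 on the cardiomyocyte marker scale.

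The log2 fold change of *Ryr2* turned to -0.18 under median-of-ratios scaling, -0.054 under quantile normalization and -0.094 with the reduced total, and ranged from -0.043 (without ANG II 2; -0.022 without control 1) to 0.115 with single libraries left out. *Casq2* turned to -0.028 under median-of-ratios scaling. *Hspb6* turned to 0.14 on the cardiomyocyte marker scale and ranged from -0.057 to 0.022 with single libraries left out (above 0 without control 4 or ANG II 3). The log2 ratio of *Pln* to *Atp2a2* turned to -0.23 under quantile normalization, and ranged from -0.059 to 0.044 with single libraries left out. That of *Camk2d* to *Ryr2* was -0.34 under quantile normalization, with an exact permutation p of 0.0286 before adjustment over the 6 ratios. With 1 library left out the exact test cannot go below 0.0571, so *Sln* to *Atp2a2* (2.15 to 3.78) and *Slc8a1* to *Atp2a2* (0.78 to 0.96) could not reach an unadjusted p under 0.05 there. The causes were not tested, except that fewer libraries raise the smallest p.

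Libraries with the same number did not deviate together (correlations of -0.02, 0.06, -0.03 and -0.01). No pairing by number was seen, but 4 correlations cannot show that there was none. With the replicate block, 2 members, 7 other calcium handling genes, 1 cardiomyocyte marker and 2968 genes in all were called. Under the block the limma adjusted p of *Trdn* was 0.0862. Depth limits *Sln* and *Fkbp1b*, which rest on few fragments.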

Other observations

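The genes whose log2(FPKM + 1) followed a member most closely over the 8 libraries are given as a description, since 2 groups that differ raise a correlation for any genes that differ. Closest to *Hrc* were *Phyh* (Pearson r = 0.996), *Etfa* (0.995) and *Rpl3l* (0.993). Closest to *Atp2a2* were *Pdk2* (0.995), *Aldh4a1* (0.991) and *Ppm1l* (0.989), and closest to *Pln* were *Acadvl* (0.988), *Pla2g5* (0.987) and *Rtn2* (0.986). Closest to *Slc8a1* were *4930402H24Rik* (0.982), *Vps53* (0.980) and *Atp1b1* (0.979). *Ryr2*, which did not separate the groups, was followed by *Rbl2* (0.970), *Prpf8* (0.956) and *Snx19* (0.934). For *Sln* the closest were *Gstt3* (0.987), *Ctbs* (0.982) and *Rps3a1* (0.982), and for *Casq2* they were *Myom3* (0.965), *Anapc1* (0.962) and *Vapa* (0.958). For *Camk2d* they were *Ptges2* (0.986), *Coq6* (0.973) and *Map7d1* (0.968). For *Jph2* they were *Klc2* (0.977), *Wdr33* (0.977) and *Fsd2* (0.973), and for *Trdn* they were *Cdip1* (0.980), *Pdp2* (0.969) and *Gm15948* (0.968).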
